A study of Homo sapiens with 15 samples.

Results

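6 human genes that changed strongly in xenograft tumors from cells transfected with a MOAP-1 construct are described here across all 15 tumors of the study. They are the transcription factor EBF2, the receptor ACKR5 (named GPR182 on older arrays), the phosphatase inhibitor PPP1R14A, the ubiquitin ligase adaptor ENC1, the enzyme HAL, and the membrane protein TMEM71. The 6 genes were chosen by their measured log2 differences, as named genes with some of the largest changes, in MOAP-1, K264R, or K278R tumors against vector tumors. Each ranked 1 to 3 by size, in its direction and in at least 1 of those contrasts, among the named genes that were called there without overlap between the groups. The array holds 19480 named genes in all. Those differences therefore chose the genes and are given below as a description, with no test. The 6 genes are measured by 8 of 34127 probes, and all 8 passed the filter on dim probes. The leading probe of PPP1R14A passed it through the vector and RASSF1A tumors, that of HAL through the K264R and K278R tumors, and that of ENC1 through every construct except vector.

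The tumors grew in athymic nude mice from HCT116, a line of human colon cancer cells, with 3 tumors and 3 arrays for each of 5 constructs. The constructs were Myc-tagged wild type MOAP-1, empty vector, the MOAP-1 mutants K264R and K278R (each a lysine replaced by arginine), and pCDNA3-HA-RASSF1A. The methods describe transient transfection of the HCT116 cells. Tumors were taken weeks later, after the days for which the paper reports expression of the construct in culture. The age of the mice is not given in the sources used here. RNA came from whole tumors, which also hold mouse host cells, and was read by human probes in 1 color. The question of the array experiment was which genes differ when wild type or mutant MOAP-1 is expressed.

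A level below is the log2 of the background-corrected signal minus the 75th percentile of the same array, so that positive levels are brighter than that percentile. Arrays differed in brightness, with 75th percentiles from 496.3 to 1402, and 85.1% to 93.1% of spots were well above background on each array. The percentile differed by construct, at 631 to 768 in vector, 800 to 1022 in MOAP-1, and 1176 to 1402 in K264R tumors. It was 496 to 1152 in K278R and 613 to 818 in RASSF1A tumors. Scaling and construct are thus partly confounded, most of all for K264R against vector. The probe of MOAP1 itself averaged -0.28 ± 0.22 (SD, n = 3) in vector tumors, 0.59 ± 0.21 in MOAP-1, 0.27 ± 0.18 in K264R, and 0.46 ± 0.06 in K278R tumors. The RASSF1 probe was at 1.68 ± 0.15 in vector tumors and 1.57 ± 0.02 in the tumors labelled RASSF1A and was thus not higher in the latter. Whether it lies within the expressed insert is not given in the sources used here.

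3 arrays call for separate mention. K278R tumor 2 had the lowest 75th percentile and the lowest mean correlation with its own construct (0.986 across probes). Tumor 3 labelled RASSF1A correlated more with the vector tumors (0.994) than with its own construct (0.990), and it lay on the slide of the vector tumors. MOAP-1 tumor 2 shared a slide with the K278R tumors, MOAP-1 tumors 1 and 3 shared another, the K264R tumors had a slide of their own, and tumors 1 and 2 labelled RASSF1A shared a slide that was scanned on another day. For every MOAP-1 construct against vector, construct and slide therefore cannot be told apart. Of 8 colon epithelium markers, 7 exceeded background clearly in each of the 15 tumors, while CDH17 was not well above background in any tumor. Summed over each list on the linear scale, where the array 75th percentile is 1, these markers reached 181 to 307, against 1.92 to 40.3 for 6 fibroblast markers, 2.12 to 3.70 for 6 endothelial markers, and 4.10 to 20.4 for 6 smooth muscle markers. In whole tumors, fewer cells of a type and less RNA per cell cannot be told apart.

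MOAP-1 is a partner of the tumor suppressor RASSF1A that helps to activate Bax, a protein that permeabilizes mitochondria in apoptosis. The 6 genes have no known common pathway. EBF2 is a member of the early B cell factor family and directs fat and bone cell differentiation, ACKR5 is an atypical chemokine receptor known from endothelium, and PPP1R14A is a kinase-regulated inhibitor of myosin light chain phosphatase known from smooth muscle. ENC1 is a kelch-repeat protein that binds actin, joins substrates to the CUL3 ubiquitin ligase, and is a target of Wnt signaling in colon tumors. HAL converts histidine to urocanate, mainly in liver and skin. The role of TMEM71 is little known.

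**Figure D1:**
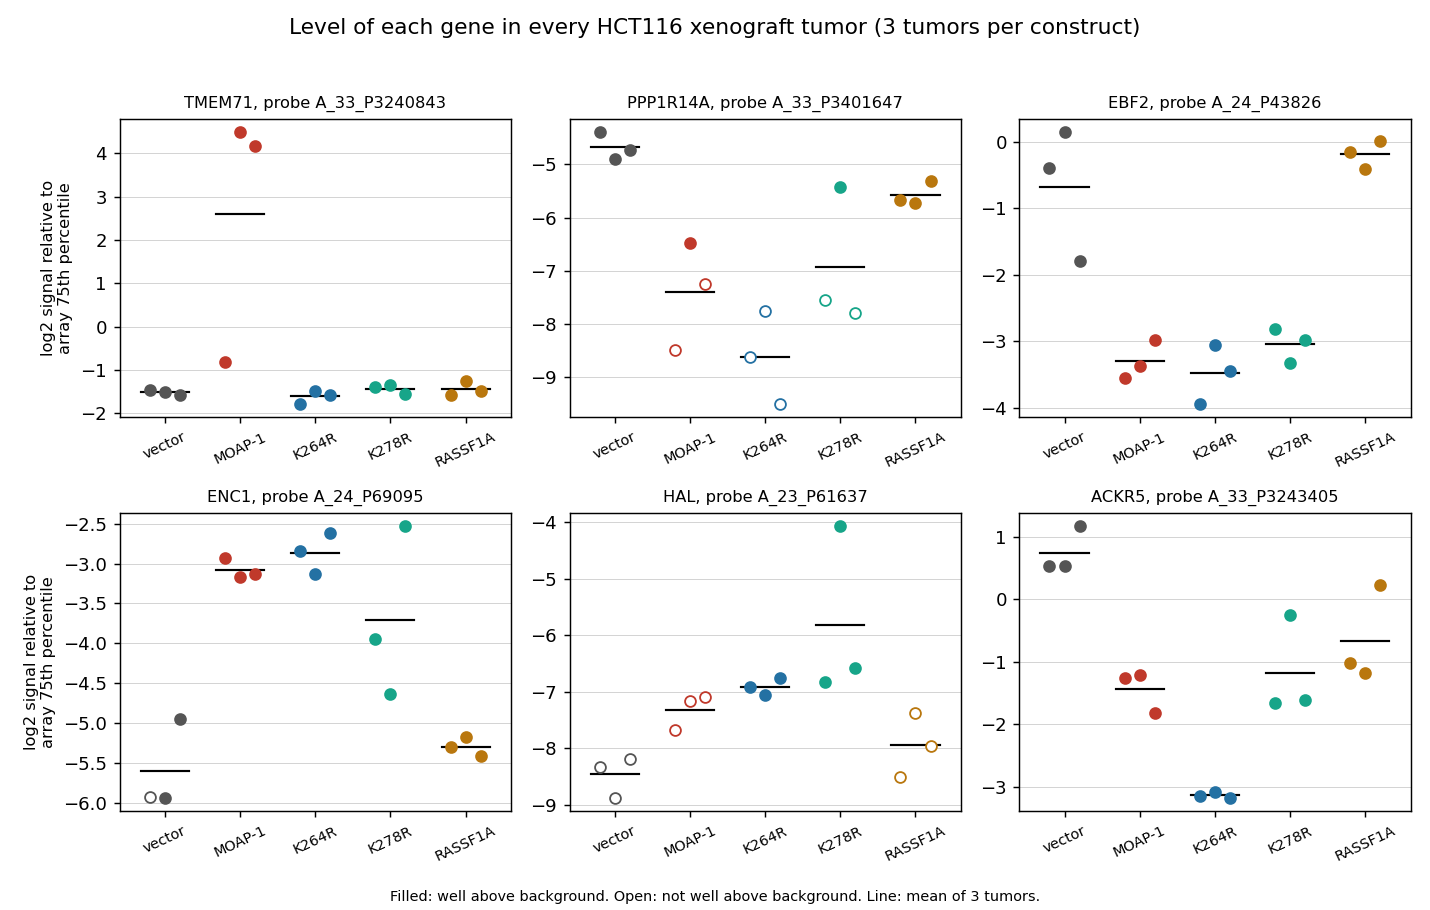
Log2 level of the leading probe of each gene in every tumor, by construct, with 3 tumors per construct and a line at their mean. Open circles were not well above background. EBF2, PPP1R14A, and ACKR5 were lower in MOAP-1, K264R, and K278R tumors than in vector tumors, ENC1 was higher, HAL was at background in vector and MOAP-1 tumors, and TMEM71 was high in MOAP-1 tumors 2 and 3 (4.49 and 4.16).

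The promoters of 3 of the 6 genes are shown from a RefSeq table (GRCh38.p14, 300 bases from 250 before to 50 after the start). Of these genes, PPP1R14A and ACKR5 were picked as falls and HAL as a rise. The promoters of EBF2, TMEM71, and ENC1 were not examined here. Capitals mark each CG dinucleotide, the site of cytosine methylation. The PPP1R14A promoter is at chr19:38256325-38256624 on the minus strand, that of HAL at chr12:95996295-95996594 on the minus strand, and that of ACKR5 at chr12:56994242-56994541 on the plus strand.
PPP1R14A: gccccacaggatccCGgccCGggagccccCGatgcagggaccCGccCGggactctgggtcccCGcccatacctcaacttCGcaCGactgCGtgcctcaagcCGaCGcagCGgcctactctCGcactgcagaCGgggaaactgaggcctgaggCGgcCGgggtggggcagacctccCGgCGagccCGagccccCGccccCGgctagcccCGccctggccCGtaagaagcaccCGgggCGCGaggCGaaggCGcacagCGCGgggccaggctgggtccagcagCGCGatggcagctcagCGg
HAL: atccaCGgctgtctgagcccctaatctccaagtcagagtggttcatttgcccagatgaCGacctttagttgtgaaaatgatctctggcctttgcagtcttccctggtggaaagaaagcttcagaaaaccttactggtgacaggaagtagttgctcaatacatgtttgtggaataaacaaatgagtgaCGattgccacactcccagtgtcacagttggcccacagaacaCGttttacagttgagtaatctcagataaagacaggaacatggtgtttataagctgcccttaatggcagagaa
ACKR5: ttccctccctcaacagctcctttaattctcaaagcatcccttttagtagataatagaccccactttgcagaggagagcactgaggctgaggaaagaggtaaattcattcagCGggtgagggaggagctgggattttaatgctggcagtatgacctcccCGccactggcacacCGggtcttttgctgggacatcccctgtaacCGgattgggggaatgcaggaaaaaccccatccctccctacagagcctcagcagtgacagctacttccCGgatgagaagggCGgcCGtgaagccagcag
The PPP1R14A promoter held 33 CG dinucleotides and 75% G and C, where the median of all 35116 promoters was 14 and 58.7%, and 17.2% of promoters held at least 33. The HAL promoter held 4 and the ACKR5 promoter 7. PPP1R14A and ACKR5, which both fell, thus differed in CG content. GGGCGG was present 4 times in the PPP1R14A promoter and 1 time in that of ACKR5, with both strands searched, and in 45.0% of all promoters. TATAAA was present 1 time in the HAL window, on the strand opposite to the gene and after the start. It was present on either strand in 11.53% of all promoters. The palindromic motif of EBF proteins and the CArG box were in none of the 3 windows, and in 1.21% and 1.29% of all promoters, respectively.

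EBF2 was lower in every tumor of the 3 MOAP-1 constructs than in any vector tumor. Its level (probe A_24_P43826) was -0.39, 0.14, and -1.79 in vector tumors 1, 2, and 3. It was -3.55, -3.38, and -2.99 in MOAP-1 tumors, -3.94, -3.05, and -3.45 in K264R tumors, and -2.82, -3.33, and -2.98 in K278R tumors. Vector tumor 3 was the lowest of the vector tumors, and it still lay above all 9 tumors of the MOAP-1 constructs. The mean difference from vector was -2.62 (SE 0.38) for MOAP-1, -2.80 for K264R, and -2.36 for K278R. EBF2 ranked as fall 2 among the named genes in MOAP-1 and K278R tumors, and as fall 27 in K264R tumors.

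The tumors labelled RASSF1A stayed at the vector level of EBF2, with levels of -0.15, -0.41, and 0.02 on both of their slides. Between K264R and RASSF1A, a pair of constructs outside the contrasts in which EBF2 was picked, EBF2 was lower by 9.85-fold in K264R tumors (log2 difference -3.30, SE 0.38, limma adjusted p = 4.39e-05). The pair shares no vector array, but the search that picked the genes ran over K264R as well. In that comparison 23.4% of all kept probes were called in either direction, where a called probe had an adjusted p under 0.05 and differed 1.5-fold or more. The difference was -3.20 without tumor 3 labelled RASSF1A. No slide held both constructs, so slide and construct cannot be told apart in this pair.

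Among 5 genes of the EBF family and their zinc finger partners, measured by 8 kept probes, 2 probes fell and 0 rose in MOAP-1 tumors. The lists of related genes were drawn up with earlier results of these data known, and their counts stand beside the share of all kept probes called in the same direction, which was 6.69% lower and 9.92% higher in MOAP-1 against vector. In K264R tumors 2 fell (10.2% lower and 9.25% higher of all probes), and in K278R tumors 1 fell (3.2% lower and 7.71% higher). The probe that fell in all 3 was that of ZNF423, a zinc finger protein that binds EBF proteins, with differences of -1.45, -1.51, and -1.23 in MOAP-1, K264R, and K278R tumors. ZNF521, its paralog, fell in MOAP-1 and K264R tumors (-0.68 and -0.90) at 1 of its 2 probes. In the tumors labelled RASSF1A, 0 probes of any list and 0% of all kept probes were called against vector in either direction by limma (0% higher, 0% lower), although 3695 probes had an unadjusted p below 0.05. Of 7 probes of the 4 genes next to EBF2 on its chromosome, 3 rose in MOAP-1, 2 in K264R, and 2 in K278R tumors, and 0 fell, while the median change over the 7 was -0.11, 0.10, and -0.12. PPP2R2A, a regulatory subunit of a protein phosphatase, rose by 1.2, 1.33, and 0.78 in MOAP-1, K264R, and K278R tumors, and KCTD9 rose at 1 of its 3 probes by 0.87, 0.82, and 0.61.

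ACKR5 fell furthest in K264R tumors. Its level (probe A_33_P3243405) was 0.54, 0.54, and 1.17 in vector tumors 1, 2, and 3. It was -1.26, -1.22, and -1.81 in MOAP-1 tumors, and -3.15, -3.08, and -3.17 in K264R tumors. The K264R tumors lay closest together of all constructs (SD 0.05) and below every other tumor. The levels in K278R tumors were -1.65, -0.25, and -1.62, with tumor 2 nearest to vector. The tumors labelled RASSF1A were at -1.02, -1.18, and 0.22, and tumor 3, on the slide of the vector tumors, was the highest of them. The mean difference from vector was -2.18 in MOAP-1, -3.88 (SE 0.39) in K264R, -1.92 in K278R, and -1.41 in RASSF1A tumors. Within the slide that tumor 3 shares with the vector tumors, the RASSF1A difference was -0.53.

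ACKR5 was picked in K264R tumors (as fall 3 of the named genes), so the other constructs could be compared with each other. The search that picked the genes ran over MOAP-1 and K278R as well. MOAP-1 and K278R tumors differed by -0.26 (limma adjusted p = 0.888, 95% interval -1.11 to 0.59), in a comparison in which 0% of kept probes were called by limma and 2821 had an unadjusted p below 0.05. On the slide that holds both constructs, MOAP-1 tumor 2 differed from the K278R mean by -0.04. MOAP-1 tumors were lower than those labelled RASSF1A by a log2 difference of -0.77 (adjusted p = 0.143, interval -1.62 to 0.08, where 21.2% of probes were called). That difference was -1.65 with the scan day as a block, a fit in which RASSF1A rests on tumor 3 alone. Only tumor 3 labelled RASSF1A was scanned on the day of the other constructs, and without it the difference was -0.33. K278R tumors differed from those labelled RASSF1A by -0.51 (adjusted p = 0.354, interval -1.36 to 0.34, where 16% of probes were called). Without K278R tumor 2 it was -0.97 (adjusted p = 0.0535), and without tumor 3 labelled RASSF1A it was -0.07.

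Of 16 genes for atypical and related chemokine receptors, their ligands, and the adrenomedullin system, 14 were measured by 19 kept probes. In MOAP-1 tumors 1 probe rose and 2 fell, in K264R tumors 1 rose and 3 fell, and in K278R tumors 1 rose and 0 fell. Of all kept probes 9.92%, 9.25%, and 7.71% were called higher in these constructs, and 6.69%, 10.2%, and 3.2% lower. CXCL11, an interferon-induced chemokine, rose in MOAP-1 and K278R tumors, from vector tumors that were not well above background, so no fold is given. ACKR1, the chemokine receptor of red cells and venules, fell by 0.62 and 0.78 on the log2 scale in MOAP-1 and K264R tumors. CXCR5, the receptor of CXCL13, fell in MOAP-1 tumors, which were not well above background. CXCL10, another interferon-induced chemokine, rose in K264R tumors, again from vector tumors not well above background. CXCL12 fell by 0.71 in K264R tumors at 1 of its 3 probes. The genes next to ACKR5 held 0 called probes.

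The leading probe of PPP1R14A (A_33_P3401647) was dim throughout. Its level was -4.40, -4.90, and -4.72 in vector tumors 1, 2, and 3, which are signals of 29.9, 21.5, and 29.1. It was -8.48, -6.47, and -7.25 in MOAP-1 tumors, -8.62, -7.75, and -9.49 in K264R tumors, and -7.55, -5.43, and -7.78 in K278R tumors. Only MOAP-1 tumor 2 and K278R tumor 2 of these 9 were well above background. The tumors labelled RASSF1A lay between, at -5.68, -5.72, and -5.31. Against vector the difference was -2.73 (SE 0.61) in MOAP-1, -2.25 in K278R, and -0.90 in RASSF1A tumors, with no overlap between the groups. K264R tumors, all at background, were at least 6.31-fold lower than vector on the processed signals, a bound that depended on the background model, since the difference was -1.28 under normexp and -1.42 without spots of extreme background. PPP1R14A was among the 5 largest falls in all 3 MOAP-1 constructs, so no pair between them is tested. In the same settings the MOAP-1 difference shrank to -1.99 and -0.905. Normexp models the background of each spot.

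A brighter probe of PPP1R14A (A_33_P3335682) moved the same way by less, but only on the scaled level. Its level was 7.26, 7.36, and 7.02 in vector tumors, 6.70, 6.67, and 6.73 in MOAP-1 tumors, and 6.43, 6.52, and 6.32 in K264R tumors. It was 6.73, 7.31, and 6.72 in K278R tumors, where tumor 2 overlapped the vector tumors, and 7.42, 7.68, and 7.07 in the tumors labelled RASSF1A. The differences from vector at this probe were -0.51, -0.79, -0.29, and 0.17 in MOAP-1, K264R, K278R, and RASSF1A tumors. The direction of the RASSF1A difference was thus opposite at the 2 probes.

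**Figure D2:**
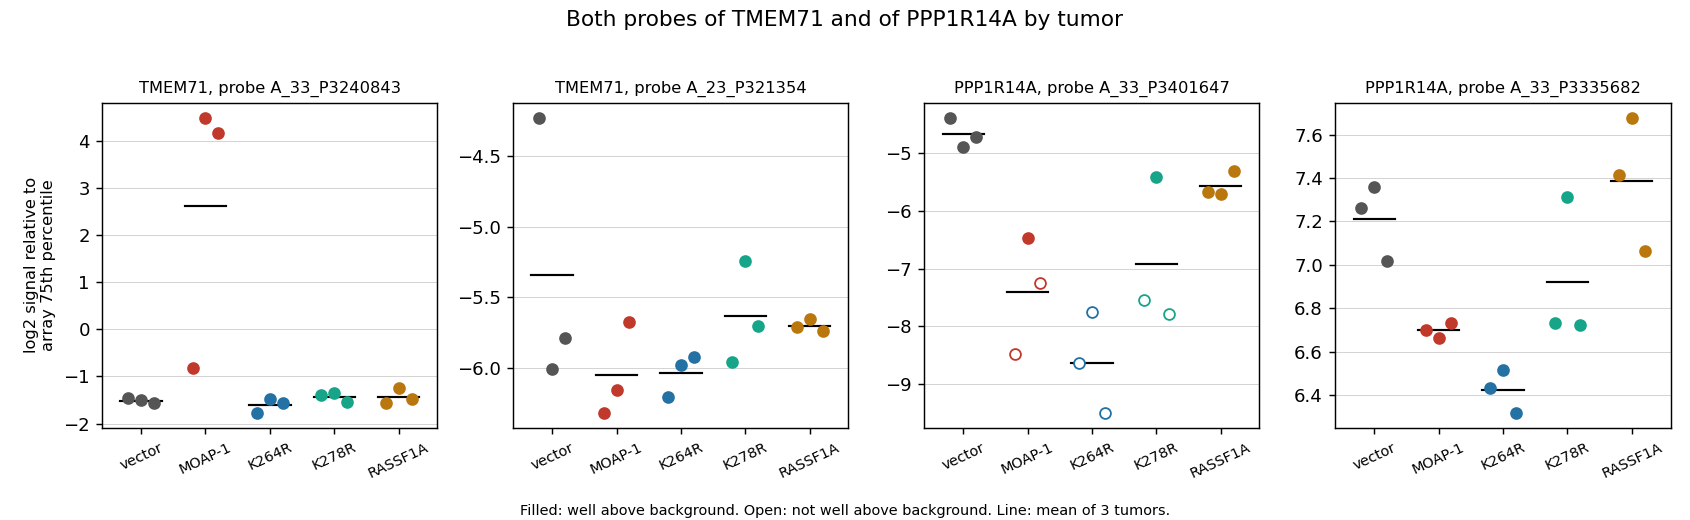
Log2 level by tumor and construct for both probes of TMEM71 (left pair) and of PPP1R14A (right pair), with lines at the mean of 3 tumors and open circles for tumors not well above background. At the second TMEM71 probe the MOAP-1 tumors (-6.32, -6.16, and -5.67) were not above the others, and at the second PPP1R14A probe the MOAP-1 difference from vector was -0.51 against -2.73 at the first.

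Around PPP1R14A, 16 genes of myosin light chain phosphatase and its regulators were measured by 27 probes. In each of MOAP-1, K264R, and K278R tumors, 6 probes rose and 0 fell, and the median change over the list was 0.01, 0.10, and 0.13 against 0.02, -0.05, and 0.06 over all kept probes. Of all kept probes 9.92%, 9.25%, and 7.71% were called higher in these constructs, and 6.69%, 10.2%, and 3.2% lower. PPP1R14C, a relative of PPP1R14A that also inhibits the phosphatase, rose by 1.40, 1.13, and 0.99 in MOAP-1, K264R, and K278R tumors, opposite to PPP1R14A. RHOA, a small GTPase that promotes actomyosin contraction, rose by 1.06, 1.15, and 0.63. MYL9, a regulatory myosin light chain, rose by 1.15, 0.70, and 0.99. PPP1R12A, the targeting subunit of the phosphatase, rose by 1.38 in K264R tumors at 1 of its 2 probes. MYL9 is also expressed in smooth muscle, whose 6 markers summed to 4.8 to 20.4 in vector, 5.01 to 10.5 in MOAP-1, 4.10 to 6.17 in K264R, and 5.48 to 10.6 in K278R tumors. The part of such cells in these results was not tested. The genes next to PPP1R14A held 0 called probes.

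ENC1 was higher in all tumors of the MOAP-1 constructs than in any vector tumor. Its level (probe A_24_P69095) was -5.93, -5.94, and -4.94 in vector tumors 1, 2, and 3, of which 2 of 3 were well above background. It was -2.93, -3.17, and -3.13 in MOAP-1 tumors, -2.84, -3.13, and -2.62 in K264R tumors, and -3.94, -4.64, and -2.53 in K278R tumors. K278R tumors were the most spread, with tumor 2 nearest to vector and tumor 3 the highest of all 15. The difference from vector was 2.53 in MOAP-1, 2.74 (SE 0.41) in K264R, and 1.90 in K278R tumors. ENC1 was picked in K264R tumors, as rise 2 of the named genes.

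The tumors labelled RASSF1A were at the vector level of ENC1, at -5.31, -5.17, and -5.41. Against them ENC1 was 4.66-fold higher in MOAP-1 tumors (log2 difference 2.22, limma adjusted p = 0.000997) and 3.01-fold higher in K278R tumors (1.59, adjusted p = 0.0104), with no overlap in either pair. In these pairs 21.2% and 16% of all kept probes were called, and the share of probes without overlap was not counted. The search that picked the genes ran over MOAP-1 and K278R as well, so these tests are not independent of it. For K278R the difference from RASSF1A was 2.06 (adjusted p = 0.00202) without K278R tumor 2 and 1.00 (adjusted p = 0.0248) without K278R tumor 3. With the scan day as a block it was 1.70, in a fit in which RASSF1A rests on tumor 3 alone. MOAP-1 and K278R tumors differed by 0.63 (adjusted p = 0.674, 95% interval -0.25 to 1.51), by 0.53 within the slide that holds both, by 0.16 without K278R tumor 2, and by 1.22 (adjusted p = 0.074) without K278R tumor 3. Both the size and the direction of the ENC1 differences depended on the background model. Its signal was 10.3 to 24.9 in vector and 88.7 to 127 in MOAP-1 tumors, and under normexp the difference from vector turned to -0.64 in MOAP-1 and -0.72 in K278R tumors and was 0.15 in K264R tumors. Without extreme spots it was 0.54, 0.46, and 0.59, respectively. Under normexp MOAP-1 exceeded RASSF1A by 0.67 (adjusted p = 0.812). Without extreme spots that difference was again 0.67 and was called (limma adjusted p = 0.00484).

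**Figure D3:**
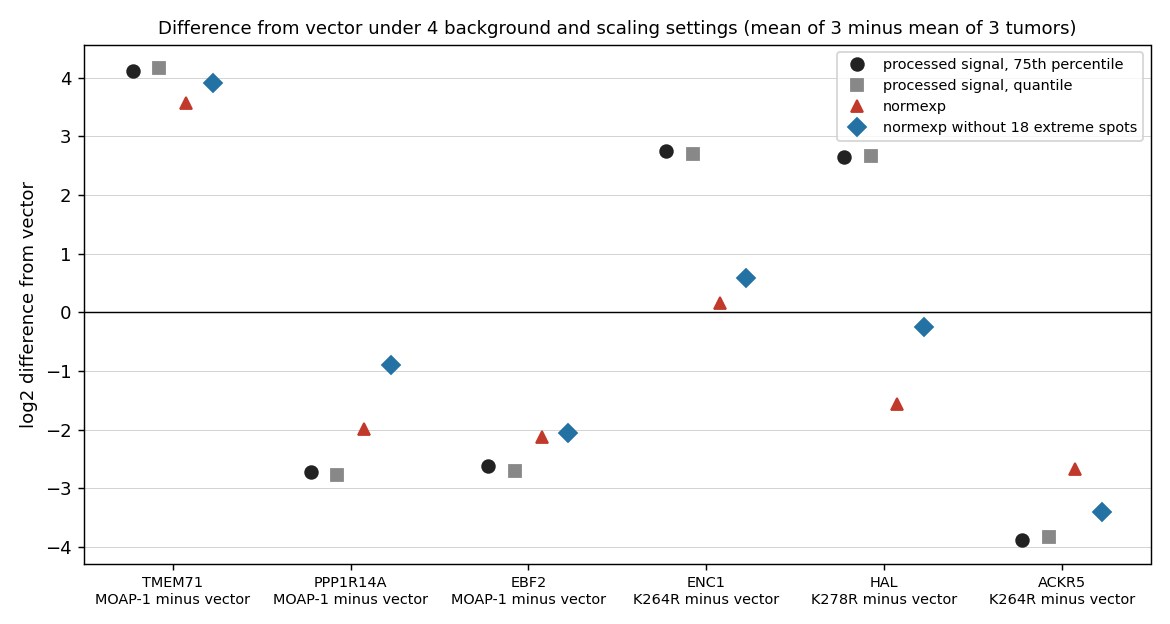
Log2 difference from vector of each gene in the contrast that picked it (mean of 3 tumors minus mean of 3 tumors), under 4 combinations of background correction and scaling. The dim probes moved most, with ENC1 falling from 2.74 to 0.15 and HAL from 2.64 to -1.56 under normexp, while TMEM71, EBF2, and ACKR5 kept their direction.

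Of 11 other genes of the KEAP1, CUL3, and NRF2 system, to which ENC1 and related kelch proteins connect, 12 probes were kept. In MOAP-1 tumors 1 rose and 1 fell, in K264R tumors 2 rose, and in K278R tumors 1 rose. Of all kept probes 9.92%, 9.25%, and 7.71% were called higher in these constructs, and 6.69%, 10.2%, and 3.2% lower. NQO1, a target of NRF2, rose by 0.80 and 0.89 in MOAP-1 and K264R tumors. GCLC, another NRF2 target, which makes glutathione, fell by 0.685 in MOAP-1 tumors, opposite to NQO1. TXNRD1, a thioredoxin reductase, rose by 0.62 and 0.67 in K264R and K278R tumors. Of the genes next to ENC1, ARHGEF28 fell in K264R tumors by 0.87 at 1 of its 2 probes.

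HAL was the dimmest of the 6 genes at its probe (A_23_P61637), and its levels in vector tumors, -8.33, -8.88, and -8.19, were all at background. MOAP-1 tumors were at -7.68, -7.17, and -7.10, also not well above background. K264R tumors were at -6.93, -7.06, and -6.76, and K278R tumors at -6.83, -4.07, and -6.58, all well above background. K278R tumor 2 was far above the others, with a signal of 29.5 where the other K278R tumors had 8.20 and 12.1. HAL was picked in K278R tumors (rise 3 of the named genes), where it was at least 1.67-fold higher than in vector. That bound rested on K278R tumor 2, since K278R tumors 1 and 3 lay below the mean of the dimmest signals well above background on the vector arrays, and without tumor 2 no bound remained. The measured means differed by 2.64, or by 1.77 without K278R tumor 2. This direction was lost under normexp, at -1.56, and at -0.25 without extreme spots.

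The tumors labelled RASSF1A were at background for HAL, at -8.51, -7.38, and -7.96. The probe passed the filter through the K264R and K278R tumors, so comparisons of K264R with constructs at background are given with no test. K264R tumors were at least 1.01-fold above MOAP-1 tumors, a pair of constructs in which 0.00327% of all kept probes were called, and at least 1.12-fold above those labelled RASSF1A. Both MOAP-1 and RASSF1A tumors were at background, so no fold is given for that pair. Of 7 other genes of histidine metabolism with 8 probes, HARS1, the histidyl-tRNA synthetase, rose by 0.64 in K264R tumors, and 0 probes were called in MOAP-1 or K278R tumors. Of all kept probes 9.92%, 9.25%, and 7.71% were called higher in MOAP-1, K264R, and K278R tumors, and 6.69%, 10.2%, and 3.2% lower. CCDC38, next to HAL, fell by 1.02 and 0.85 in MOAP-1 and K264R tumors.

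TMEM71 had the largest rise of any named gene in MOAP-1 tumors, and it rested on 2 of 3 tumors. Its level (probe A_33_P3240843) was -0.82, 4.49, and 4.16 in MOAP-1 tumors 1, 2, and 3, and -1.46, -1.51, and -1.57 in vector tumors. As signals these are 548, 17908, and 18275 in MOAP-1 and 225 to 259 in vector tumors. K264R tumors were at -1.77, -1.47, and -1.57, K278R tumors at -1.40, -1.35, and -1.55, and those labelled RASSF1A at -1.57, -1.24, and -1.48. MOAP-1 tumor 1 was above all 12 tumors of the other constructs but far below the other MOAP-1 tumors. The SD among MOAP-1 tumors (2.97) was not exceeded by any kept probe measured in all 3 of them, and the median was 0.13. The mean difference from vector was 4.12 (SE 0.95), 5.83 without MOAP-1 tumor 1, 3.18 without tumor 2, and 3.35 without tumor 3. MOAP-1 tumor 2 lay on the slide of the K278R tumors and tumor 3 on that of MOAP-1 tumor 1, so high and low levels occurred on 1 slide.

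A second TMEM71 probe (A_23_P321354) did not show this rise. It was at -6.32, -6.16, and -5.67 in MOAP-1 tumors and at -4.23, -6.01, and -5.79 in vector tumors, so that the difference was -0.71 with overlapping groups. Of the 3 pairs of constructs outside the contrast that picked TMEM71, 0 were called at either probe by limma, and 0 had an unadjusted p below 0.05. At the first probe K264R differed from K278R by -0.17 (limma adjusted p = 0.92, 95% interval -2.23 to 1.88, where 0.575% of probes were called) and from RASSF1A by -0.17 (adjusted p = 0.902, interval -2.23 to 1.88). K278R and RASSF1A tumors differed by -0.00260 (adjusted p = 0.999, interval -2.06 to 2.05). The fit has 1 spread for all constructs, which includes that of the MOAP-1 tumors. Of 4 genes next to TMEM71, DNAAF11 fell by 0.69 in K264R tumors, where 10.2% of all kept probes were called lower.

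Over all 15 tumors, the gene whose level was most like that of TMEM71 was CCKBR, the receptor of gastrin and cholecystokinin (Pearson r = 0.967 over 15 tumors). CCKBR was at -6.14, -3.15, and -3.17 in MOAP-1 tumors 1, 2, and 3 and at -5.97, -6.19, and -5.94 in vector tumors. ELN, which encodes elastin, followed (r = 0.938), at 1.72, 2.73, and 2.57 in MOAP-1 tumors. MOAP-1 tumors 2 and 3 were thus high at TMEM71, CCKBR, and ELN. The 6 fibroblast markers summed to 40.3 and 31.4 in these tumors and to 5.24 in MOAP-1 tumor 1, against 1.92 to 6.71 in vector tumors. In K278R tumor 2 they summed to 37.9 while TMEM71 was at -1.35 and CCKBR at -5.55. COL1A1 averaged 3.68 ± 1.48 (SD, n = 3) in MOAP-1 and 1.44 ± 0.76 in vector tumors, while LUM, a defining fibroblast marker, was not well above background in any tumor.

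**Figure D4:**
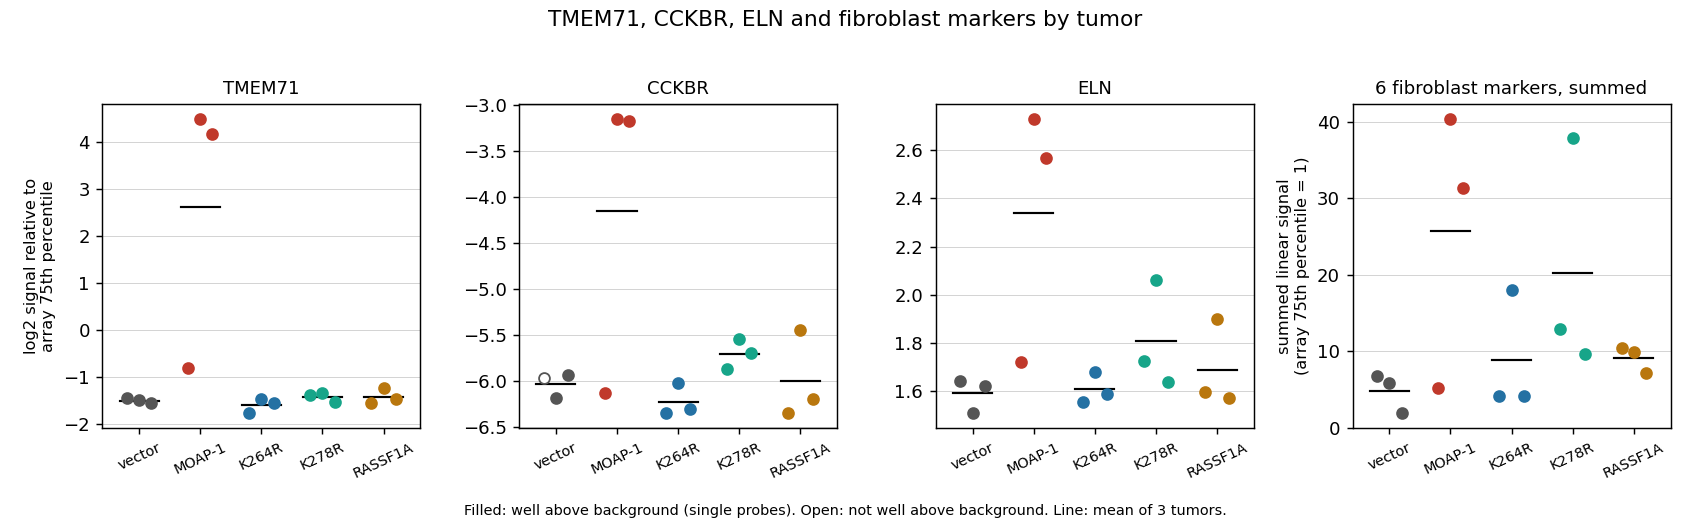
Log2 level of TMEM71, CCKBR, and ELN and the summed linear signal of 6 fibroblast markers in every tumor, by construct, with lines at the mean of 3 tumors and an open circle where CCKBR was not well above background. MOAP-1 tumors 2 and 3 are high in all 4 panels, whereas K278R tumor 2 is high for the fibroblast markers (37.9) and not for TMEM71 (-1.35).

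The other genes shared their patterns with more of the transcriptome. Over 15 tumors, 835 named genes correlated with EBF2 and 525 with ENC1 at r above 0.9, compared with 120 for PPP1R14A, 43 for ACKR5, and 10 for HAL. The points share the division into constructs and slides, so these values are descriptive. LOC100507547, an uncharacterized gene, was closest in pattern to EBF2 (r = 0.995), with levels of 3.09, 3.67, and 2.17 in vector tumors 1, 2, and 3. KAT7, a histone acetyltransferase, was closest to ENC1 (r = 0.985), and XPOT, the exporter of tRNA, followed (r = 0.982) with means of -2.22 in vector and -0.50 in MOAP-1 tumors. REP15, a Rab-binding protein, was closest to ACKR5 (r = 0.991), with a mean of -0.24 in vector, -1.42 in RASSF1A, and -3.36 in K264R tumors. GAST, which encodes gastrin, was closest to PPP1R14A (r = 0.959), with means of -1.11 in vector and -1.95 in K264R tumors. MAU2, a cohesin loader, was closest to HAL (r = 0.935), with its highest level, 2.86, in a K278R tumor. Among the 6 genes themselves, ENC1 ran against PPP1R14A (r = -0.908) and EBF2 (r = -0.897), PPP1R14A ran with ACKR5 (r = 0.895), and TMEM71 had r from -0.286 to 0.309 with the rest.

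**Figure D5:**
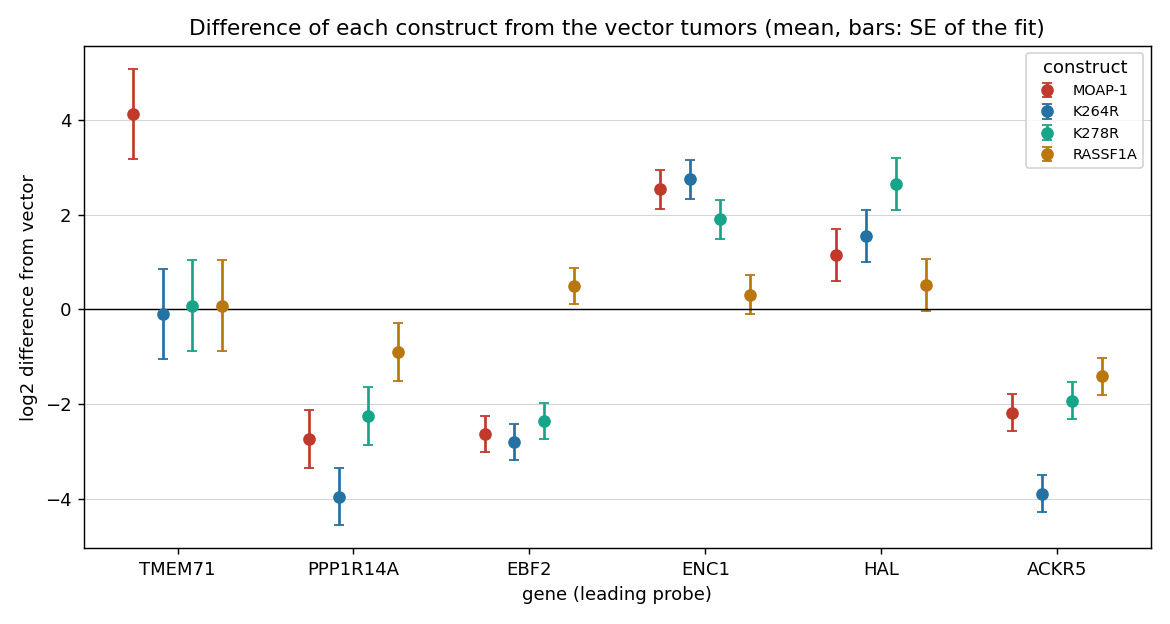
Mean log2 difference from vector of each construct at the leading probe of each gene, with bars for the SE of the limma fit over 15 arrays, the vector arrays being shared by all 4 comparisons. EBF2, PPP1R14A, and ACKR5 lay below 0 and ENC1 above 0 in all 3 MOAP-1 constructs, K264R was furthest from vector for ACKR5 (-3.88), and TMEM71 differed in MOAP-1 tumors (4.12). The points of PPP1R14A in K264R tumors and of HAL in every construct involve a group at background, so their sizes are not measured.

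The order of constructs differed from gene to gene. K264R had the largest mean difference from vector for EBF2 and ENC1, but it overlapped the MOAP-1 tumors there, and under normexp it was the nearest to vector for EBF2 (-1.77, against -2.13 in MOAP-1 and -1.91 in K278R). Under normexp without spots of extreme background, K264R was again the furthest for EBF2 (-2.32, against -2.05 in MOAP-1 and -1.83 in K278R). For PPP1R14A the K264R tumors were at background and overlapped the MOAP-1 tumors, so no order is given. For ACKR5 the 3 K264R tumors did not overlap with MOAP-1 (-3.13 against -1.43 as means). The tumors labelled RASSF1A were next to vector for EBF2, ENC1, and TMEM71, where the groups overlapped, and below vector without overlap for ACKR5 and the leading probe of PPP1R14A. All comparisons with vector share the 3 vector arrays and are not independent of each other.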

How the data were processed

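Single-color Agilent arrays of 15 tumors were used, grouped by the construct in the sample labels. The authors deposited the Feature Extraction output (version 10.5.1.1 in the file headers, 9.1 in the submitters' processing notes). Its processed signals are intensities corrected for background by the scanner software and not normalized across arrays. The authors' second deposited file holds log2 values from GeneSpring GX, scaled to the 75th percentile and centered per probe. In 8 of its columns the values match the array so labelled and in 7 those of another array of that construct, so it served only as an alternative. The design build in the headers is hg19, and names came from RefSeq (GRCh38.p14) through probe accessions, for 25419 of 34127 probes (74.5%).

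Processed intensities of 43118 spots, without outlier spots, were log2-transformed, set to the 75th percentile of each array, and averaged per probe. Probes well above background in each of the 3 tumors of any construct entered the tests (30585 probes, 28258 on all arrays, 112 lacking a value on some array). The fit used limma 3.58.1 under R 4.3.3 on the 15 arrays (lmFit, eBayes, construct as the only term, 10 residual degrees of freedom), with Benjamini-Hochberg adjustment over all kept probes and calls required adjusted p under 0.05 and a 1.5-fold change. The fit was tested on simulated data. A test is given only for pairs of constructs outside the contrasts in which a gene was picked or was among the 5 largest changes in its direction. Where all tumors of a group were not well above background, the fold is a lower bound against the dimmest signal well above background on each array, or the probe's own where higher. Named genes are the 6 members at every probe, called genes of 5 lists and of the 2 nearest genes on each side (at most the 3 largest per list), and the 3 genes most correlated with each leading probe, some of which are not reported here. The members and the lists were chosen with earlier results of these data known. Precision is limited by 3 tumors per construct, and p-values measure the spread between these tumors. Alternatives were quantile normalization, normexp (offset 50) on the median spot and background intensities with and without 18 spots of extreme background, other filters, the authors' log2 table, blocks for replicate number, slide, or scan day, a fit of 2 constructs, the methods' t-test, and leaving out each tumor.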

Additional observations from a re-analysis of the deposited data

Results flagged for a closer look

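For 2 of the genes a MOAP-1 construct and RASSF1A were set against each other and the difference passed the limma test, although the search that picked the genes ran over all 3 MOAP-1 constructs and these tests are not independent of it. EBF2 was lower in K264R tumors than in those labelled RASSF1A by a log2 difference of -3.30, and all 3 K264R tumors lay below all 3 of the others. In that pair 23.4% of all kept probes were called, and the share of probes without overlap was not counted. ENC1 was higher by 2.22 in MOAP-1 and by 1.59 in K278R tumors than in those labelled RASSF1A, in 3 of 3 tumors each, and neither ENC1 difference passed under normexp (adjusted p = 0.812 and 1). Under normexp without extreme spots both ENC1 differences were called, at 0.67 and 0.59 (limma adjusted p = 0.00484 and 0.0147). In the ENC1 pairs 21.2% and 16% of all kept probes were called, and the share of probes without overlap was not counted. The RASSF1 probe was not raised in the tumors labelled RASSF1A, and the constructs of the EBF2 and ENC1 pairs shared no slide.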

How the results depend on the processing

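EBF2 between K264R and RASSF1A was called under every alternative in which RASSF1A rests on more than 1 tumor. The search that picked EBF2 ran over K264R against vector as well (-2.80), and RASSF1A overlapped vector. These calls are therefore not independent of the choice of the gene and describe only how the value depends on the setting. Leaving out 1 tumor gave -3.51 to -3.07 (limma adjusted p from 0.000132 to 0.000382). The normexp model moved the dim genes most. Under it the median of all probes shifted by -0.53, -0.31, and -0.46 in MOAP-1, K264R, and K278R against vector (-0.15, -0.28, and -0.09 without extreme spots). Called probes went from 5079, 5949, and 3337 (59.7%, 47.6%, and 70.7% higher) to 522, 914, and 1 (49.2%, 28.8%, and 0%), or to 2760, 8985, and 1302 without extreme spots (41.4%, 13.9%, and 47.1%), and quantile normalization left 54.6% higher in K278R. In the contrasts that picked the genes, normexp with and without extreme spots gave -1.99 and -0.905 for PPP1R14A, 0.15 and 0.59 for ENC1, -1.56 and -0.25 for HAL, and -2.67 and -3.40 for ACKR5. Between constructs, normexp gave ENC1 0.67 for MOAP-1 minus RASSF1A (adjusted p = 0.812) and 0.59 for K278R minus RASSF1A (adjusted p = 1), and HAL -0.17 for MOAP-1 minus RASSF1A. Under normexp without extreme spots these ENC1 differences were again 0.67 and 0.59 and were called (limma adjusted p = 0.00484 and 0.0147). HAL was also turned without extreme spots, at 0.33 for MOAP-1 minus K264R, -0.17 for MOAP-1 minus RASSF1A, and -0.50 for K264R minus RASSF1A. TMEM71 under normexp was 0.10 for K264R minus K278R, 0.11 for K264R minus RASSF1A, and 0.00346 for K278R minus RASSF1A (0.00346 without extreme spots), and the last was 0.0440 with the scan day and 0.14 with the slide as a block, and -0.0727 to 0.0908 with 1 tumor left out. ENC1 for K278R minus RASSF1A lost its call with only the 2 constructs (1.59, adjusted p = 0.065) and in the methods' t-test (1.59, adjusted p = 0.19). With the scan day as a block RASSF1A rests on tumor 3 alone, so no call is read from that fit. There ENC1 for K278R minus RASSF1A was 1.70, and ACKR5 for MOAP-1 minus RASSF1A was -1.65. HAL for K264R minus RASSF1A was 1.03 with only the 2 constructs, and nothing is read from its p because K264R let the probe through the filter. ACKR5 for MOAP-1 minus K278R ranged from -0.50 to 0.21 with 1 tumor left out. The called probes of the related lists, 13 in MOAP-1, 15 in K264R, and 9 in K278R tumors, became 2, 2, and 0 under normexp, 6 in MOAP-1 and 4 in K278R without extreme spots, and 5 in K278R with only the 2 constructs. They were 6 without K278R tumor 2, an alternative chosen after seeing the data. The causes were not tested. Replicate numbers did not pair the tumors (correlation of deviations from -0.30 to 0.41, above 0.1 in 15 of 30 same-number pairs), and with the replicate block EBF2 between K264R and RASSF1A stayed at -3.30 (adjusted p = 0.000112), and no call of the genes changed. The filter on all 15 arrays leaves out the leading probes of PPP1R14A, ENC1, and HAL, so these have no value there. Signals near background limit PPP1R14A, ENC1, and HAL, and slide cannot be told apart from construct where a MOAP-1 construct is set against vector.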
